A study of Mus musculus with 4 samples.

Results

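Interferon response genes carry out and regulate the antiviral and immune programme that cells start when they meet interferon. The 39 genes described here were taken from a named list of receptors, transcription factors, RNA sensors, antiviral effectors and regulators, and a listed position was assigned to a gene when the comma-separated gene labels of that position included it. Of 506952 positions in the deposited table, 1901 (0.375%) carried the label of a member. They fell in 27 of the 39 members, and 12 members had none; of all 21900 protein-coding genes, 33.1% had at least 1 site.

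The data come from a cultured mouse line of acute myeloid leukemia, driven by NRAS and by AE9a, which is a truncated AML1-ETO fusion protein. The labels name 2 libraries of Tet2 KO cells, which lack a dioxygenase that oxidises 5-methylcytosine, and 2 libraries of WT cells, all of them NRAS/AE9a cells grown with SCF, IL-3, IL-6, G418 and puromycin. Poly(A) RNA was treated with bisulfite, which turns unmethylated cytosine into uracil while 5-methylcytosine resists, so a level here means the share of the reads used at a position that still show cytosine, as a fraction. The table used here lists positions called in the Tet2 KO libraries and is named as unique to KO. Neither WT values nor values of a single library are in it, so KO was not compared with WT, no test was made, and every value below belongs to the Tet2 KO libraries. The labels do not say how the knockout was made, whether the cells are 1 clone, or whether the 2 replicates were separate cultures.

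As background, type I interferon binds the receptor pair IFNAR1 and IFNAR2 and interferon gamma binds IFNGR1 and IFNGR2. Kinases of the JAK family then phosphorylate STAT proteins. A complex that includes STAT2 and IRF9 binds the interferon-stimulated response element in promoters of the genes that the signal turns on. Many of the induced proteins sense viral RNA, block translation or virus entry, or limit the signal itself, and myeloid cells are able to mount this response.

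Sequence bears on what a listed position is, and it was read where the RefSeq table of promoter windows (GRCm38.p6, the build the submitters name as mm10) covers one. Only 1 of the 1901 member positions lies in such a window, in Isg20, which encodes an exonuclease that degrades single-stranded RNA. It is position 78914009 on the plus strand of chromosome 7, inside the gene span and upstream of another annotated start of the gene. The stretch chr7:78913985-78914039 is printed because it holds this position, marked by the capital.

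Isg20: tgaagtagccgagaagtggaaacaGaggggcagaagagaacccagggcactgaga

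The reference base at this listed position is guanine, not cytosine. The authors' table gives it 7 unconverted reads of 13 used, a level of 0.538 (Wilson 95% interval 0.291 to 0.768), with 15 reads covering it and a call in 1 replicate. Over all genes, 3375 listed plus-strand positions lie in a promoter window, of which 1779 (52.7%) are cytosine in the reference, 991 (29.4%) guanine, 605 (17.9%) adenine and 0 thymine. In the same windows thymine makes up 23.1% of the letters and cytosine 26.6%. Of the 477 of these positions called in both KO replicates, 324 (67.9%) are cytosine. The plus-strand window positions had median levels of 0.706 at cytosine, 0.69 at guanine and 0.615 at adenine, against 0.538 over plus-strand member sites. Their base shares thus may not hold for member sites. On the minus strand, 87 of 96 positions (90.6%) are cytosine. The base under the remaining 1900 member positions was not analysed here, so their values are given as the authors' levels at listed sites, without calling each site a methylated cytosine.

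**Figure D1:**
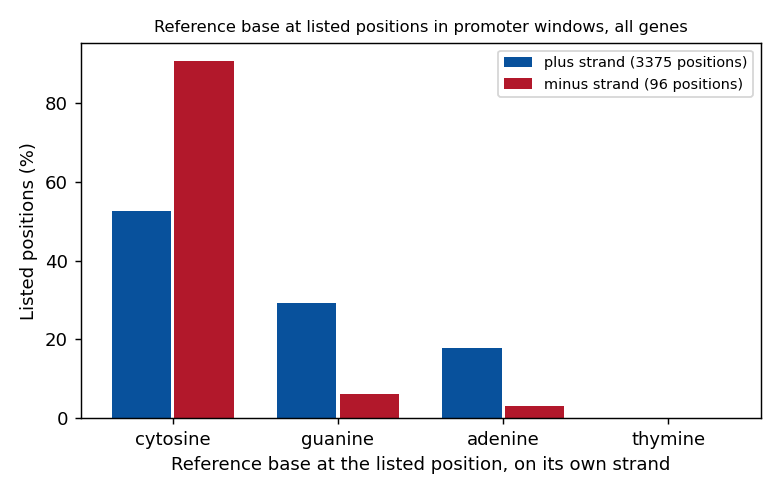
Share of listed positions (%) by the reference base on the strand of the position, for positions of all genes inside RefSeq promoter windows, with the plus strand in blue and the minus strand in red. On the plus strand 52.7% are cytosine and 0 positions are thymine; on the minus strand 90.6% are cytosine.

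Some members have the letters of a known interferon element near an annotated start. The letters GAAANNGAAA, a core of the interferon-stimulated response element, were searched on both strands of the windows from 250 bases before to 50 bases after each annotated start, with overlapping matches counted. They occurred for 13 of the 32 members in the promoter table (40.6%), against 1079 of all 27025 genes in it (3.99%). Among members with listed sites 5 of 22 held a match, and among members without listed sites 8 of 10. Those 10 all lie on the minus strand, and 21 of the 22 lie on the plus strand. The split by sites thus cannot be told apart from a split by gene strand. Matches are a description of the letters in these windows and are not measured binding. Some lie after the annotated start, as does the Eif2ak2 match printed below. Stretches from members at either end of the site counts are shown, with the matching letters in capitals, for Stat2 at chr10:128270261-128270300 on the plus strand, Ifit1 at chr19:34640770-34640809 on the plus strand, Isg15 at chr4:156200866-156200905 on the minus strand, and Eif2ak2 at chr17:78882530-78882569 on the minus strand.

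Stat2: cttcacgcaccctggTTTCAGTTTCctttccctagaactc

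Ifit1: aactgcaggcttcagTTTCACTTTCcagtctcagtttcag

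Isg15: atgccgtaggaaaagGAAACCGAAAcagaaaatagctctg

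Eif2ak2: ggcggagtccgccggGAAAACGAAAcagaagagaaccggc

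Stat2 had 159 listed sites and Ifit1 had 4, while Isg15 and Eif2ak2, both on the minus strand, had 0. A match in the window therefore occurred in members with many, few and no listed sites.

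Gene strand separated the members with sites from those without. All 21 members that the promoter table places on the plus strand had at least 1 site, against 49.5% of 8730 plus-strand protein-coding genes. On the minus strand 1 of 11 members had a site, against 18% of 8762 minus-strand protein-coding genes. The table gives no strand for 7 members, of which 5 had a site, against 30.5% of 4408 such protein-coding genes. Of these 7, 4 had sites on the plus strand (Usp18, Mx2, Rtp4 and Ifi27), 1 had sites on the minus strand (Dhx58) and 2 had none (Mx1 and Oas2). Wherever the promoter table gives the strand, 100% of 382154 gene labels of sites named a gene on the same strand as the site. How the authors assigned labels was not analysed here, and assignment by strand would fix this share at 100%.

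A count of 5 or more sites was reached by 20 of the 21 plus-strand members, against 48.1% of plus-strand genes, and by 0 of the 11 minus-strand members, against 1.14% of minus-strand genes. At least 1 site called in both KO replicates was found in 19 of the 21 plus-strand members, against 46.1% of plus-strand genes, and in 0 of the 11 minus-strand members, against 1.27%. The members without a site were Irf7, Ifih1, Ddx58, Eif2ak2, Oas2, Oas3, Ifitm2, Mx1, Rsad2, Bst2, Isg15 and Ifi30. A site needs reads, and no listed position has a level under 0.2 or fewer than 10 covering reads. The list is also named as unique to KO, so positions called in WT as well may be missing from it. Absence from the list therefore says nothing of expression and sets no upper limit on the KO level. These libraries are bulk RNA, in which fewer cells that express a gene and less RNA per cell cannot be told apart.

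**Figure D2:**
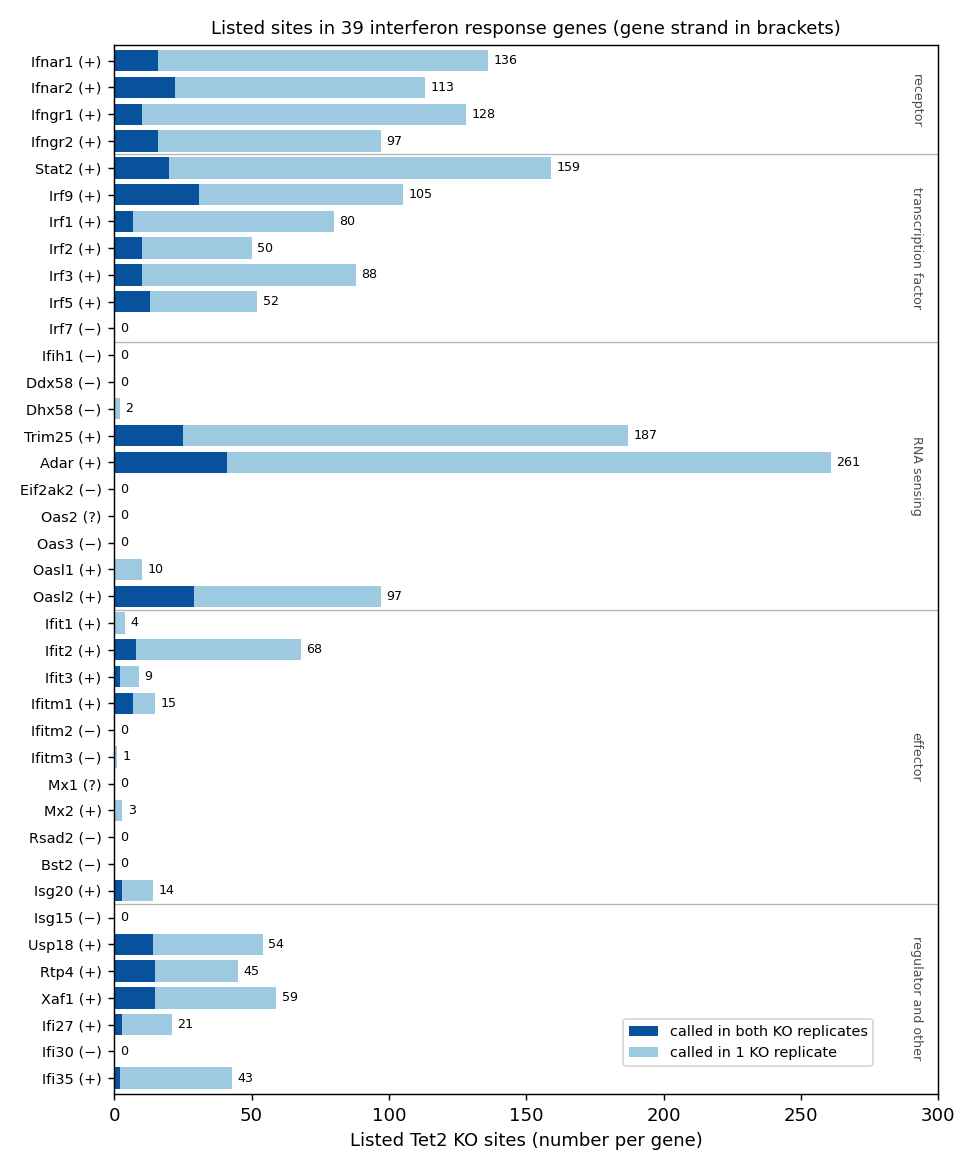
Number of listed Tet2 KO sites in each of the 39 members, grouped by role, with sites called in both KO replicates in dark blue, sites called in 1 replicate in light blue, and the gene strand in brackets (a question mark where neither the promoter table nor a site gives it). Adar leads with 261 sites, and Dhx58 and Ifitm3 are the minus-strand members with any. The 25 plus-strand members carry 1898 of the 1901 sites, and over all genes 502191 of 506952 listed sites lie on the plus strand.

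The 4 receptor genes all carried about 100 or more sites, at percentiles from 65.2 to 81.2 of plus-strand genes with a site. Those genes had a median of 72 sites. The 23 plus-strand members with 5 or more sites had a median count percentile of 47.4, near the middle. Ifnar1, the low-affinity chain of the type I receptor, had 136 sites, 16 of them called in both KO replicates, with a median level of 0.531 and quartiles of 0.349 and 0.733. Ifnar2, the chain that binds the ligand tightly, had 113 sites, 22 of them in both, with a median level of 0.5. Ifngr1, the ligand-binding chain for interferon gamma, had 128 sites, 10 of them in both, with a median level of 0.5. Ifngr2, its signalling partner, had 97 sites, 16 of them in both, and its median level of 0.6 was the highest of the receptors. Median coverage ran from 14 reads in Ifngr2 to 19 reads in Ifnar2, and for the 4 genes together both replicates called 64 of 474 sites (13.5%), against 14.3% of all plus-strand sites.

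The highest receptor sites were read in few molecules. In Ifnar1, position 91505327 on chromosome 16 was unconverted in 11 of 11 reads used (Wilson interval 0.741 to 1) out of 26 covering. In Ifngr1, position 19609340 on chromosome 10 kept 15 of 16 reads (0.938, interval 0.717 to 0.989). The most covered site of Ifngr1, at position 19610116, lay 113 bases before the end of the gene. It kept 50 of 83 reads used (0.602, interval 0.495 to 0.701). The most covered site of Ifnar2, at 91391848 on chromosome 16, kept 14 of 64 (0.219, interval 0.135 to 0.334). The highest sites were picked by level from sites that include the most covered one. A most covered site thus could not lie above them, and these values do not relate level to depth. Both KO replicates listed position 91561666 of Ifngr2, at levels of 1 and 0.91. They also listed position 91505770 of Ifnar1, at 0.512 and 0.5 with 55 covering reads, and there the replicates differed by 0.012.

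Among the transcription factor genes, Stat2 and Irf9, whose proteins are part of the complex that binds the response element, had the most sites. Stat2 on chromosome 10 had 159 sites with a median level of 0.551, of which 20 were called in both replicates. Irf9 on chromosome 14 had 105 sites with a median level of 0.533, of which 31 (29.5%) were called in both. This is 17.4 sites per kb of gene span, at percentile 95.6 of 4324 plus-strand genes with a site, while its count of sites is at percentile 69.25. Position 55607841 of Irf9 was unconverted in every read used in both replicates, a level of 1 with an SD of 0 at 22 covering reads. Its most covered site, 55606140 with 66 reads, had a mean level of 0.325 and an SD of 0.0212 between the replicates. At the most covered shared site of Stat2, 128278701 with 44 reads, the replicates stood apart, at 0.706 and 0.3.

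The other interferon regulatory factors differed in number and depth of sites. Irf3, which is activated after viral RNA is sensed, had 88 sites in a span of 5.20 kb, 16.9 per kb, with a median level of 0.570. It held the most covered member site, 44999908 on chromosome 7, where 64 of 115 reads used were unconverted out of 143 covering (0.557, interval 0.465 to 0.644). Irf1, an activator induced by interferon gamma, had 80 sites with a median level of 0.536, 7 of them called in both replicates. Irf5, which acts downstream of Toll-like receptors, had 52 sites with a median of 0.531, 13 of them in both. Irf2, which competes with Irf1 for the same elements, had 50 sites and a lower median of 0.438, at percentile 6.86 of 4200 plus-strand genes with 5 or more sites. At its most covered site, however, the replicates of Irf2 lay close together: at 46846537 on chromosome 8, with 96 covering reads, they gave 0.74 and 0.738. Irf7, the factor that amplifies type I interferon production and lies on the minus strand, had 0 sites.

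The genes for sensing and editing double-stranded RNA held both the highest counts and 5 of the 12 absences. Adar, which encodes the enzyme that deaminates adenosine in double-stranded RNA, had 261 sites, at percentile 97.4 of plus-strand genes with a site, with a median level of 0.538. Of these, 41 were called in both replicates. The most covered of the shared sites, 89746579 on chromosome 3 with 51 reads, had levels of 0.784 and 0.756. Trim25, the ubiquitin ligase that assists the sensor RIG-I, had 187 sites with a median of 0.545, 25 of them in both. Its position 89013392 on chromosome 11 was at a level of 1 in both replicates, with 12 covering reads. The gene of RIG-I, listed as Ddx58, that of its relative MDA5, Ifih1, and Eif2ak2, the kinase that halts translation, had 0 sites. The third RIG-I-like receptor gene, Dhx58, had 2 sites on the minus strand of chromosome 11, at 100699217 with 4 of 14 reads (0.286, interval 0.117 to 0.547) and at 100701368 with 4 of 13 reads (0.308, interval 0.127 to 0.576).

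In the OAS family, whose active enzymes sense double-stranded RNA and make a second messenger, the listed members were the paralogs Oasl2 and Oasl1, neighbours on the plus strand of chromosome 5. Oasl2 had 97 sites with a median level of 0.545, and 29 of them (29.9%) were called in both replicates. Its most covered shared site, 114904903 with 32 reads, had levels of 0.79 and 0.75. A few bases further on, position 114904909 was listed in 1 replicate at 0.219, from 7 of 32 reads (interval 0.110 to 0.388). Oasl1 had 10 sites, all called in 1 replicate, with levels from 0.364 to 0.8 and no more than 15 covering reads. Oas2 and Oas3 had 0 sites. Oasl1 and Oasl2, like the Ifit, Ifitm and Mx genes, are paralogs, and how alike their sequences are was not analysed here. No source used here says how reads that match several genes were placed.

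Effector genes carried fewer sites, and for several of them every site was thinly read. Ifit2, which binds viral RNA and restrains translation, had 68 sites with a median level of 0.436, at percentile 6.56 of plus-strand genes with 5 or more sites, and 8 of them were called in both replicates. Its median coverage was 13 reads and its highest 21. Ifit3 had 9 sites with levels from 0.2 to 1, of which 7 lay within 14 bases, including the consecutive positions 34588281, 34588282 and 34588283 on chromosome 19 at 0.455, 0.5 and 0.417. Ifit1, which recognises RNA lacking a methylated cap, had 4 sites between 34647606 and 34647616 on the same chromosome. They stood at 1, 0.583, 1 and 0.6, each from 10 to 12 reads used. Mx2, an interferon-induced dynamin-like GTPase, had 3 sites between 97560571 and 97560585 on chromosome 16, at 0.727, 0.273 and 1, each from 11 reads. In Ifit3 and Mx2 the levels thus covered most of the range that the table allows within a few bases.

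Ifitm1, a membrane protein gene of the family that blocks virus entry, had the highest levels of any member with 5 or more sites. Its 15 sites had a median of 0.824, with quartiles of 0.338 and 0.984, at percentile 99.8 of 4200 plus-strand genes. Of the 15, 7 (46.7%) were called in both replicates, the largest share among the members. Positions 140968205 and 140968320 on chromosome 7 were at 1 in both replicates. Position 140969497 had levels of 0.812 and 0.81 with 60 covering reads, and 140969661 had 1 and 0.934. The other shared sites were 140968207 at 0.9 and 0.75, 140969555 at 0.882 and 0.766, and 140969517 at 0.5 and 0.456. Only 1 of these 7 fell under a mean of 0.8, whereas 5 of the 8 sites called in 1 replicate were under 0.4. None of the 15 sites had 20 or more reads used, which at the 7 shared sites is a mean per replicate and not a total. Several levels rest on a small part of the coverage: 140969532 was unconverted in 12 of 12 reads used (interval 0.758 to 1) out of 35 covering, and 140969570 in 5 of 16 (0.312, interval 0.142 to 0.556) out of 53.

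The neighbouring family members lay on the other strand. Ifitm3, the best-known entry inhibitor, had 1 site, at 141010595 on the minus strand of chromosome 7, with 7 of 34 reads used (0.206, interval 0.104 to 0.368) out of 109 covering, and Ifitm2 had 0. Coverage at the Ifitm3 site was higher than at any of the Ifitm1 sites; the depth elsewhere in Ifitm3 was not analysed here. Isg20 had 14 sites with a median level of 0.542, 3 of them in both replicates. At 78914453 its replicates stood at 0.614 and 0.2, and at 78920061 both were at 0.8. Rsad2, the gene of the antiviral enzyme viperin, and Bst2, the gene of tetherin, which holds budding virus on the cell, had 0 sites.

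Regulators and less defined interferon-induced genes split in the same way. Usp18, whose protein removes ISG15 from its targets and dampens type I receptor signalling, had 54 sites with a median level of 0.521, of which 14 were called in both. At 121246045 on chromosome 6, 139 bases into the gene span, 13 of 13 reads used were unconverted (interval 0.772 to 1) out of 42 covering, and 33 bases before it position 121246012 was at 1 in both replicates. Isg15 itself, the ubiquitin-like modifier, had 0 sites. Xaf1, a gene linked to cell death, had 59 sites with a median of 0.541 and 15 in both, and Rtp4, which encodes a receptor transporter protein, had 45 with a median of 0.494 and 15 in both (33.3%). In Xaf1 the most covered shared site, 72308921 on chromosome 11, had replicate levels of 1 and 0.5. Ifi35 had 43 sites (median 0.6, 2 in both) and Ifi27 had 21 (median 0.667, 3 in both). Ifi30, which encodes a lysosomal thiol reductase, had 0.

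**Figure D3:**
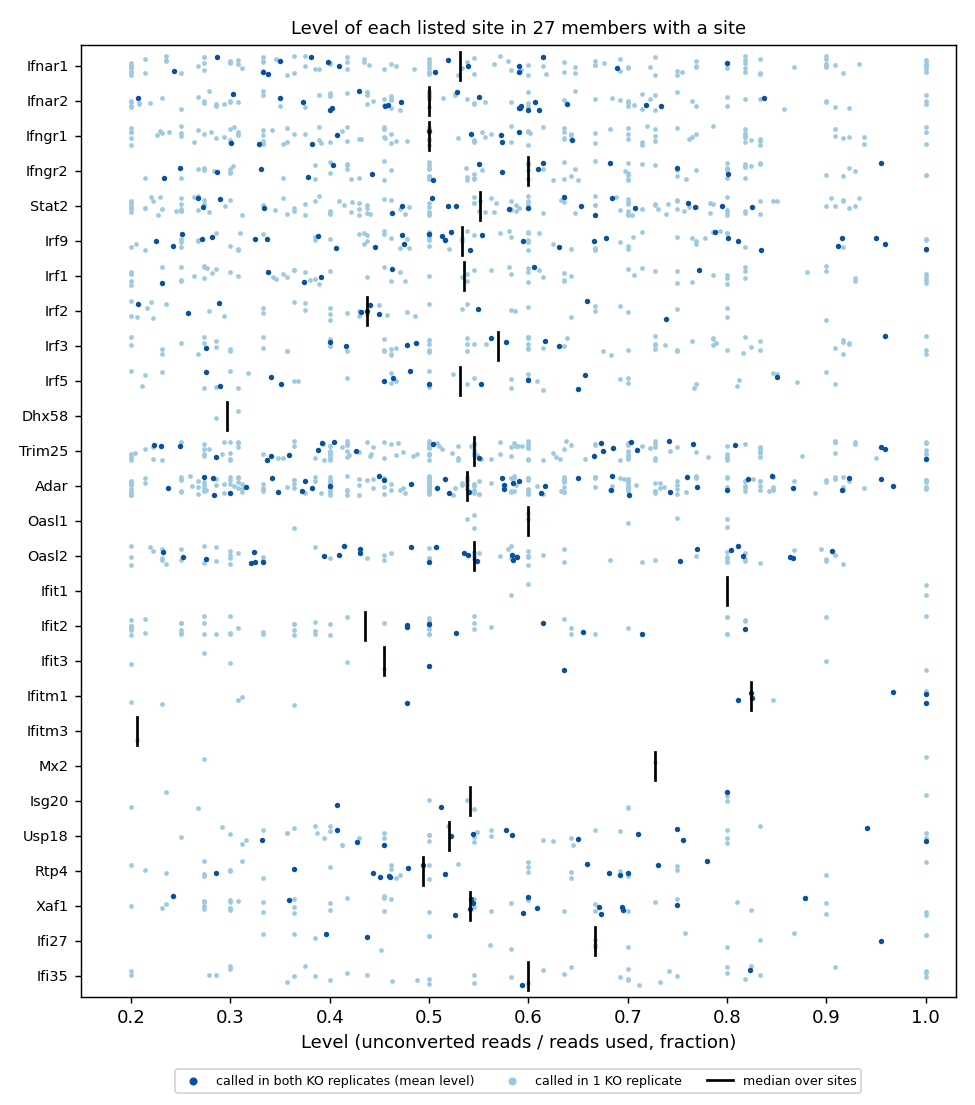
Level of every listed site in the 27 members with a site, on a linear axis that starts below the lowest listed level of 0.2; dark points are means of both KO replicates, light points are single-replicate calls, and the black line is the median over the sites of a gene. Ifitm1 has the highest median among members with 5 or more sites (0.824), and the 2 minus-strand members lie below 0.31.

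Levels of members as a whole lay close to those of other genes. The 1898 plus-strand member sites had a median level of 0.538 with quartiles of 0.375 and 0.7, against 0.531 with 0.37 and 0.7 over the 500293 other plus-strand sites. Coverage had a median of 18 reads in members and 17 in the others. A level of 1 was listed for 61 member sites (3.21%) and for 3.99% of the others. Gene medians of the 23 members with 5 or more sites ran from 0.436 to 0.824 with a median of 0.538, and 14 of the 23 fell within the quartiles of all plus-strand genes, 0.5 and 0.581. The 3 minus-strand member sites stood at 0.206, 0.286 and 0.308, and the other minus-strand sites had a median of 0.231. The share of covering reads that entered the level had a median of 82.4% at single-call member sites on the plus strand, against 82.8% at the others.

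Agreement between the 2 KO replicates varied among members. In all, 319 member sites (16.8%) were called in both, against 14.2% of all listed sites, and 1582 in 1 replicate. Shares ran from 0 in Oasl1 to 46.7% in Ifitm1 over the members with 5 or more sites. At the shared sites the replicates differed by a median of 0.1, with quartiles of 0.036 and 0.2, and at 77 of 319 sites (24.1%) they differed by more than 0.2, against 18.9% of other plus-strand shared sites. Only sites that reached the level minimum in both replicates enter here, which limits how far they can differ. With 30 to 49 covering reads 65 of 239 member sites (27.2%) were called in both, against 19.4% of the others; with 10 to 14 reads these shares were 10.5% and 8.77%, and with 50 or more reads 18.2% and 17.2%. Sites of a gene share libraries and reads and are not independent, so these differences were not tested.

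**Figure D4:**
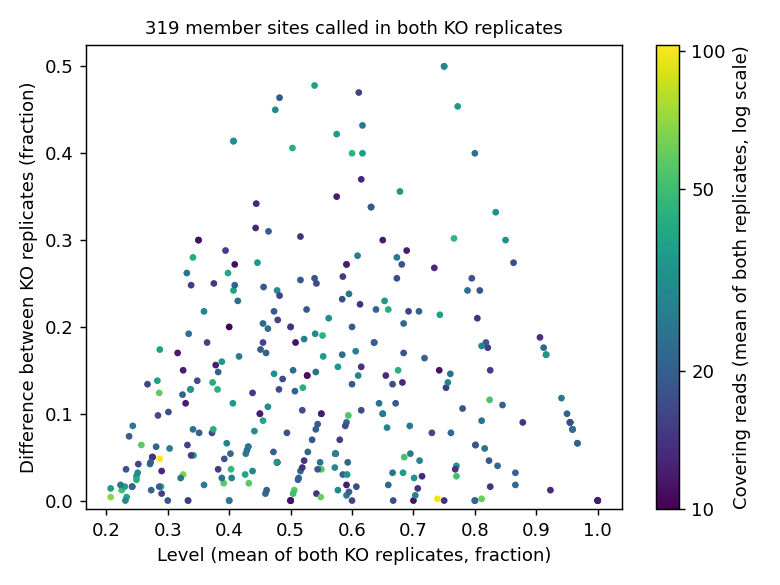
Difference in level between the 2 KO replicates (vertical axis, fraction) against their mean level (horizontal axis, fraction) for the 319 member sites called in both, coloured by covering reads on a log scale. Differences reach 0.5 and have a median of 0.1; the deepest sites, with about 100 covering reads, lie near 0.

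Along the gene span, plus-strand member sites gathered toward the 3' end about as much as in other plus-strand genes, with gene-specific patterns. The last 10% of the RefSeq span held 601 of 1898 plus-strand member sites (31.7%), against 29.0% of sites in other plus-strand genes, and the first 10% held 129 (6.80%) against 8.21%. In Rtp4 all 45 sites lay in the last 10% of a 94.0 kb annotated span, between 23610073 and 23613189 on chromosome 16. Of these, 31 lay between 23612885 and 23613189. Their place within single transcripts was not analysed here, so this share does not place them near a 3' end. Ifnar2 had 87 of its 113 sites in the last 10% of its span, in a block between 91403803 and 91405273, and Ifit2 had 44 of 68. Irf3 was the reverse, with 59 of 88 sites in the first 50% of the span and 0 in the last 10%. Among members with 5 or more sites, Irf1, Irf5, Xaf1 and Ifit3 also had 0 in the last 10%. Adar had 0 sites in the first 50% of its span and a block of 60 sites between 89734900 and 89736270. These shares are of the gene span, introns included, and are not corrected for read coverage; exons and untranslated regions were not analysed here.

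**Figure D5:**
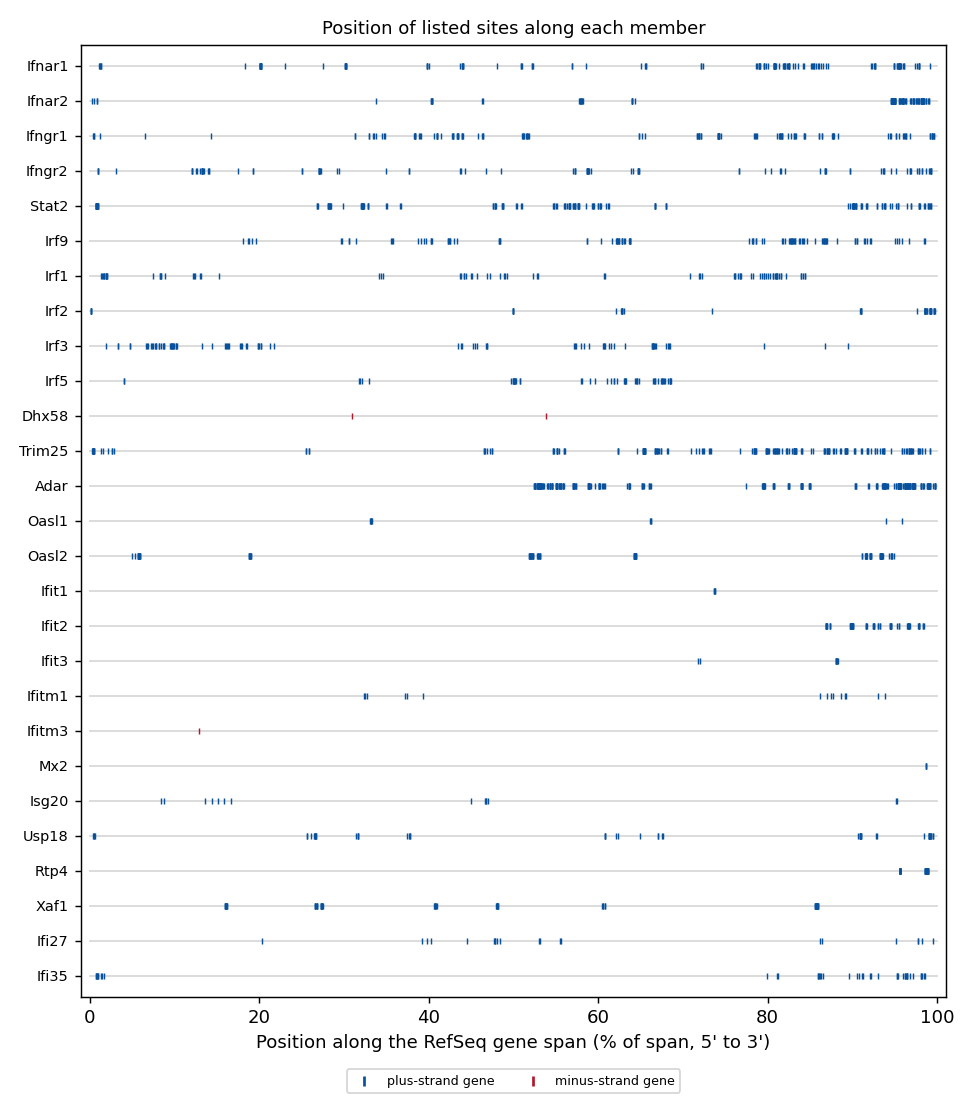
Position of each listed site along the RefSeq gene span of its member, from the 5' end (0%) to the 3' end (100%), with plus-strand genes in blue and minus-strand genes in red. Sites form separate blocks. All Rtp4 sites lie in the last 10% of its long annotated span, and no Adar site lies before 50%.

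Sites stood close together. Another listed site within 10 nt was found for 1360 of the 1898 plus-strand member sites (71.7%), against 70.6% of other plus-strand sites. Among the 23 members with 5 or more sites the share ran from 35.7% in Isg20 to 96.6% in Xaf1. The densest stretch of 100 nt was in Ifnar2, with 21 sites from 91403845 to 91403944, 10 of them called in both replicates, at a median level of 0.591. Oasl2 had 18 sites from 114910947 to 114911044 with a median of 0.397, and Ifit2 had 18 from 34573863 to 34573961 with a median of 0.349. Stat2 had 17 from 128270649 to 128270715, within the first 1% of its span, with a median of 0.6. Listed sites in a stretch shared the same reads in part and thus are not separate measurements.

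Another 68 genes of the pathway, such as kinases, adaptors and guanylate-binding proteins, were counted by strand too. Sites were found in 22 of 24 plus-strand genes, against 49.5% of plus-strand protein-coding genes, in 9 of 32 on the minus strand, against 18%, and in 5 of 12 whose strand the promoter table does not give, against 30.5% of such genes. Among those with the most sites were Nlrc5 (234), a regulator of MHC class I genes, the adaptor gene Traf3 (227), Gbp7 (178) and the kinase gene Jak2 (160). The largest shares called in both replicates were in Irgm2 (23.4% of 64), Nlrc5 (23.1%), Ifi47 (21.3% of 80), Igtp (19.4% of 62) and Irf8 (18.6% of 70). On the minus strand, Stat3 had 5 sites and Jak1 had 1, while Tyk2, Socs1, Ptpn6 and the adaptor gene Myd88 had 0. The interferon genes Ifnb1, on the minus strand, and Ifng, on the plus strand, had 0 sites.

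Markers of the labelled myeloid cells had sites in 12 of 14 genes, against 33.1% of all protein-coding genes, including Mpo (217), Csf3r (221) and Kit (106). The minus-strand markers among them had few or none: Cd33 had 3, Fcgr3 and Lyz2 had 1 each, and Ctsg and Ptprc had 0. Of the markers of plasmacytoid dendritic cells, which produce type I interferon, 2 of 6 had sites, Tcf4 and Irf8, both also used in other cells, and Siglech had 0. T and NK cell markers had sites in 1 of 9 genes (Nkg7), B cell markers in 0 of 5, and pancreatic islet hormone genes in 6 of 6, with 593 sites. Of the markers that the promoter table places on the plus strand, 8 of 8 had sites for myeloid cells and 2 of 2 for islets. For plasmacytoid dendritic cells it was 1 of 4, for T and NK cells 1 of 4 and for B cells 0 of 1. Of all plus-strand protein-coding genes, 49.5% had a site. The lymphocyte counts thus rest on few genes where sites are common. The part of any of these cells in the member sites was not tested.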

How the data were processed

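Poly(A) RNA of 2 Tet2 KO and 2 WT libraries was bisulfite-treated and made into stranded mRNA libraries, per the labels. The medium held 50 ng/ml SCF, 10 ng/ml each of IL-3 and IL-6, along with puromycin at 2 µg/ml and G418 at 1 mg/ml. Positions are on mm10, per the submitters' processing notes; aligner and site caller: not given in the sources used here, and library totals were not used here. The deposited level is a fraction, which the authors averaged where both KO replicates made a call. The deposited numbers of covering and of unconverted reads are treated as a score, since the authors gave the rounded mean of 2 libraries where both made the call; at single calls they are reads of 1 library. The deposited combined p-value was used only as a stricter limit. No column belonged to a sample outside the series.

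Reads used were computed as unconverted reads over the level. At sites called in both replicates this gives about the mean per replicate, not the total. Wilson intervals at 95% cover counting error only and treat reads as independent molecules. The deposited SD was read as a population SD and printed SDs are sample SDs: at 3312 shared sites with a mean level of at least 0.9, the higher replicate then came out at 1 in 76% of cases, against 0% with the other divisor (tolerance 0.0015). Gene spans and strands came from RefSeq tables of GRCm38.p6. Percentiles use genes with 1 or more sites (counts) or 5 or more sites (levels). Sites were computed with Python 3.11.15 and pandas 2.3.3, and the counting steps were checked on simulated data.

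The members and lists were chosen with earlier results of these data known, so no set test was made; the densest stretches and the motif search were added after the values were seen. Named were all members, per member the site of highest level among those with 20 or more covering reads, the most covered site and shared sites, and for other pathway genes the 5 with the most sites and the 5 with the largest shared share among those with 10 or more sites; Stat3, Jak1, Tyk2, Socs1, Ptpn6, Myd88, Ifnb1 and Ifng, and the marker genes with their counts, were named after their values were seen. A gene that this rule names is not reported here. The planned comparison of KO with WT was not made, because the table holds no WT or single-library values. Alternatives were other minimums of covering reads and of reads used, shared sites, sites outside runs, sites with 1 label, a stricter p-value, synonyms, and 5 or more sites per gene.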

Additional observations from a re-analysis of the deposited data

Results flagged for a closer look

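A signal outside cytosines was found at 1596 of 3375 listed plus-strand positions in promoter windows of all genes. Their reference base is not cytosine. These positions are among the listed sites counted above, and they include the Isg20 position. Guanine positions had a median level of 0.69 and adenine positions 0.615, against 0.706 at cytosine positions. No WT value stands beside them, and the cause was not tested.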

How the results depend on the processing

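The median level of member sites was 0.538. It fell with coverage, to 0.5, 0.485 and 0.4715 at 20, 30 and 50 or more covering reads, was 0.487 with 20 or more reads used, and was highest at a combined p-value of at most 1e-06, with 0.5545. Members with a site numbered 27; they stayed within 1.5 times of this except at 50 or more covering reads, with 16. Other pathway genes with a site numbered 36 and fell to 19 there. Of 1901 member sites, 851, 341 and 100 had at least 20, 30 and 50 covering reads, 319 were called in both replicates, 312 had 20 or more reads used, and 541 had no listed site within 10 nt. Sites called in both numbered 185, 83 and 18 at these 3 coverage minimums, 46 with 20 or more reads used, and 72 outside runs. At sites called in both, covering reads and reads used are means per replicate, so these minimums apply per replicate. Oasl1, Ifit1, Ifit3 and Mx2 had 0 sites left at 20 or more covering reads, and with 20 or more reads used Ifitm1, Ifit2, Rtp4 and Dhx58 also had 0. At 30 and 50 covering reads 7 and 11 members lost all sites, at 50 including Oasl2, with 97 sites before. Without single-replicate calls 5 members lost all sites, and outside runs Ifit1 did. Single labels and synonyms changed no member count. No paired analysis was possible because the table holds no values per library; leaving out a replicate and a replicate block were not run for this reason. Depth limits most single levels: the median plus-strand member site called in 1 replicate rests on 12 reads used.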

Other observations

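The reference base was also read at 100 listed plus-strand positions inside miRNA hairpins of RefSeq. Cytosine was found at 56, guanine at 30, adenine at 14 and thymine at 0. In promoter windows, 18.2% of the listed cytosine positions on the plus strand were called in both KO replicates, against 8.78% of guanine and 10.9% of adenine positions, and median coverage was 18, 15 and 15 reads. At 30 or more covering reads, 203 of 349 positions (58.2%) were cytosine.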
